A study of Mus musculus with 8 samples.

Results

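The genes described here are 10 genes that set how strongly an intestinal epithelial cell can respond to Wnt ligands. They were taken by name out of 48440 genes in the deposited table: the R-spondin receptors Lgr4 and Lgr5, the receptor-degrading ligases Rnf43 and Znrf3, the Frizzled receptors Fzd5 and Fzd7, the co-receptors Lrp5 and Lrp6, and the pathway's feedback and nuclear genes Axin2 and Tcf7. All 10 had a row in the table. RNA came from sorted jejunal epithelium of 8 female mice on a C57BL/6J background, each of which carried Sox9-EGFP, a fluorescent reporter of the transcription factor Sox9. The 4 conventionalized (CV) animals were raised germ-free, moved to a standard animal facility at 8 to 10 weeks of age, gavaged there with slurry of feces from conventionally raised mice of the same reporter colony, and studied 2 weeks later. The 4 germ-free (GF) animals were their littermates, 1 per pair (pairs A to D), and stayed in the gnotobiotic unit, so colonization and housing cannot be told apart. Each library came from 1 animal, and the sorted cells had low reporter signal, and the gate left out cells positive for CD31 or CD45 and those taking up Annexin-V or Sytox-blue. The comparison asks how RNA levels in cells of low reporter signal differ between CV animals and their GF littermates.

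Wnt ligands bind a Frizzled receptor together with an LRP co-receptor, which keeps β-catenin from being degraded and lets it act with T cell factors on target genes. Rnf43 and Znrf3 tag Frizzled proteins for removal from the cell surface. R-spondins, held by Lgr4 or Lgr5, draw these ligases away from the receptors, and so raise the cell's sensitivity to Wnt. Axin2, Lgr5, Rnf43 and Znrf3 are themselves known Wnt target genes in the crypt, and stem cells at the crypt base depend on this signal.

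Promoter sequence was in the RefSeq table (build GRCm38.p6) for 6 of the 10 genes, in 8 windows. The 250 bases before the start are shown for Lgr4 and Fzd7, the pair with the most alike log2 profiles over the libraries among the 9 tested genes, and for Axin2, the classical feedback gene. They lie at chr2:109917397-109917646, chr1:59481897-59482146 and chr11:108920099-108920348, all on the plus strand, and capitals mark a match to the T cell factor core (CTTTGAA or CTTTGAT, or else CTTTGTA or CTTTGTT, on either strand).
Lgr4: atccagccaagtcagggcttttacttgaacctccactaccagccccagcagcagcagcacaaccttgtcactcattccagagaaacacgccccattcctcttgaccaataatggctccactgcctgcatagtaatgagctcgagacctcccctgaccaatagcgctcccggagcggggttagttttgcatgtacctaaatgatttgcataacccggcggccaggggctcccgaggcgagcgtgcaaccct
Fzd7: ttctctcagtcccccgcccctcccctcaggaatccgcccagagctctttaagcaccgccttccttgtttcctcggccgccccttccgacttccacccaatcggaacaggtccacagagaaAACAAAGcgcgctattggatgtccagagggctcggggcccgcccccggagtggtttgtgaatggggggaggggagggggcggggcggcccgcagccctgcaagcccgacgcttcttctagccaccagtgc
Axin2: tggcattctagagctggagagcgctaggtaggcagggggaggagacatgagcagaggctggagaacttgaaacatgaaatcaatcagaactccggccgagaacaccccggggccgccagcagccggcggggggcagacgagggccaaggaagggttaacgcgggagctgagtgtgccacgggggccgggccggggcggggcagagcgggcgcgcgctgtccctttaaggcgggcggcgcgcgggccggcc
The Fzd7 window held 1 match, CTTTGTT on the minus strand, whose first printed base lies 130 bases before the RefSeq start. It was the only match in the 8 windows of these genes, and 14.8% of 32851 windows of the same length held at least 1. The guanine and cytosine content was 55.6% for Lgr4, 65.2% for Fzd7 and 69.2% for Axin2, against a median of 52.4% over all windows.

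Values are given as CPM, the gene's share of its library's total at a common depth. They were scaled with TMM factors, which aim to match the bulk of genes between libraries. After this scaling the tested genes had a median log2 fold change of 0.32, CV over GF. With library size only the median was 0.09, so it was larger after TMM scaling. Genes were tested against a log2 fold change of 0, not against this median. Fold changes are given without correcting for it unless stated. Depth on an approximate read scale was 9363886 to 19139683 in CV and 6209041 to 11648527 in GF libraries. Differences were tested with limma, and p-values were adjusted over the 10053 genes that reached 10 CPM in 4 or more libraries. In bulk RNA, fewer cells of a type and less RNA per cell cannot be told apart. The stem cell marker Olfm4 averaged 5033 CPM in CV and 2135 CPM in GF libraries, and 0 of 15 leukocyte markers were abundant enough to be tested. A pair of libraries stood apart. The GF library of pair C had a median correlation of 0.792 with its group, against 0.871 to 0.943 for the other 7, and the CV library of pair A had 50799 CPM of summed goblet cell markers, against 1569 to 6132 CPM in the other CV libraries and 4082 to 8181 CPM in GF libraries.

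Of the 9 genes abundant enough to be tested, 3 rose in CV animals, Lgr5, Lgr4 and Fzd7, and 0 fell. Among all tested genes 117 (1.16%) rose and 378 (3.76%) fell, and with upper-quartile scaling 263 rose and 408 fell. All 9 tested genes had a positive fold change, as did 70.2% of all tested genes. Their median log2 fold change was 0.85, against 0.32 over all tested genes. The median over all tested genes was 0.09 when values were scaled by library size only. Less the 0.32, the log2 fold changes of Lgr5, Lgr4 and Fzd7 were 1.61, 0.81 and 0.84. At an unadjusted p under 0.05, 5 of the 9 were higher, against 19.7% of all tested genes, and 0 were lower, against 8.12%. With littermates as a block the same 3 genes were called, against 8.08% of all tested genes called higher, and 0 were called lower, against 5.02%. With library-size scaling 0 of the 9 were called in either direction, against 1.16% of 10024 genes called higher and 4.86% lower. With no filter on low values 0 of the 10 were called, against 0.117% of 38312 genes called higher and 0.812% lower. With a minimum of 1 CPM, where 0.567% of 18340 genes rose and 2.34% fell, Lgr5 alone of the 10 rose. Weighting each library by its quality called Lgr4, Fzd7, Rnf43 and Tcf7 higher and 0 lower, where 7.61% of all tested genes were called higher and 6.05% lower. Lrp5 was the gene left untested, because it stayed under 10 CPM in most libraries.

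**Figure D1:**
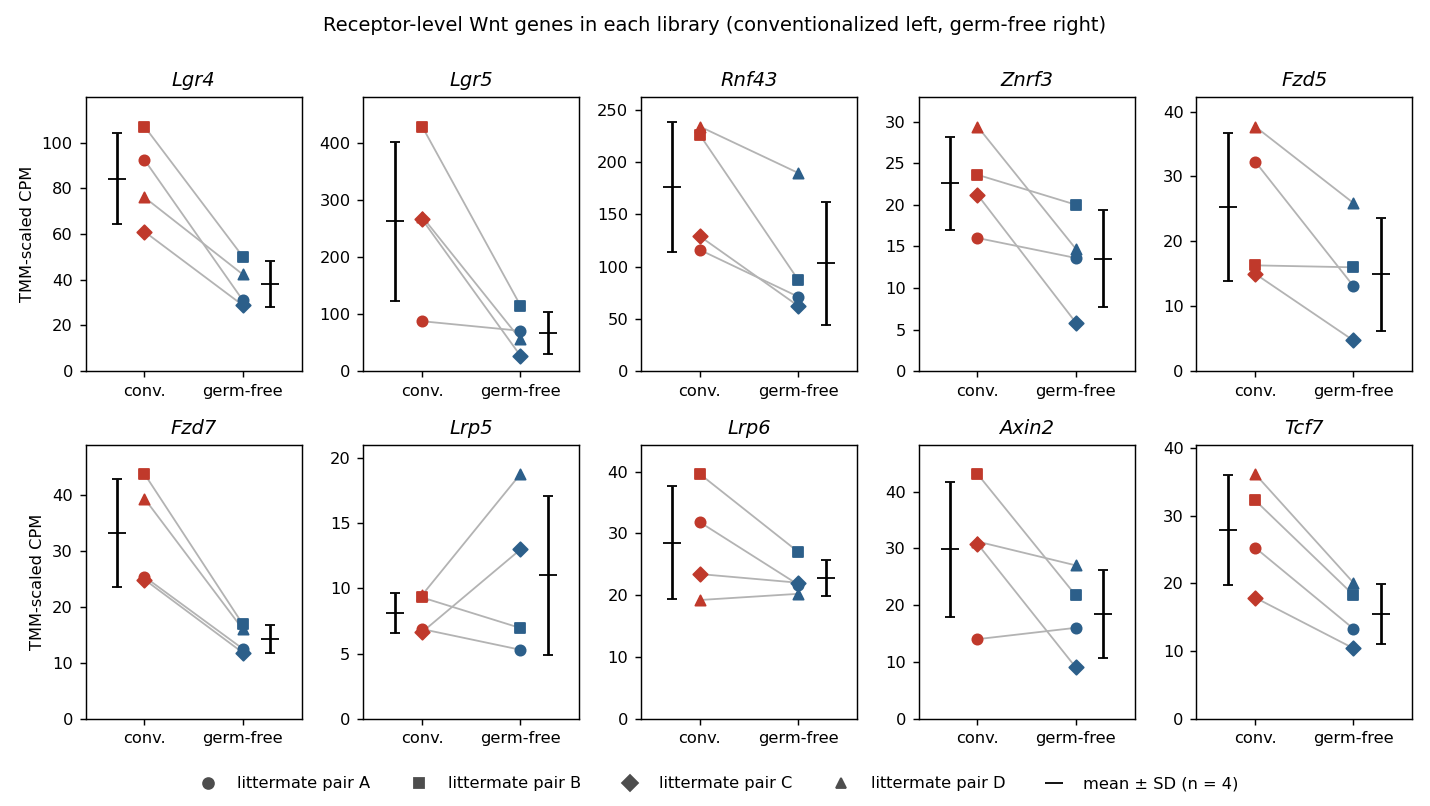
TMM-scaled CPM of each of the 10 genes in each library, CV on the left and GF on the right of every panel, with grey lines joining littermates and black bars for mean ± SD (n = 4). For Lgr4 and Fzd7 all 4 CV values lie above all 4 GF values, and Lrp5 is the only panel with its highest points (13.0 and 18.8 CPM) on the GF side.

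Lgr5 (ENSMUSG00000020140.15, GRCm38 chromosome 10, 115450311 to 115587780) encodes the R-spondin receptor that marks crypt base stem cells. In pairs A to D it was at 87.5, 429, 266 and 271 CPM in CV libraries, and at 70.7, 115, 26.9 and 55.7 CPM in their GF littermates. The CV library of pair A fell inside the GF range, while the other 3 lay above it. Lgr5 rose 3.83-fold (log2 fold change 1.94, SE 0.50, limma adjusted p = 0.0397), with means of 263 ± 139.7 CPM in CV and 67.1 ± 36.9 CPM in GF animals (SD, n = 4 each). Within littermate pairs A to D the log2 difference was 0.31, 1.89, 3.28 and 2.27. Pair A gave the smallest difference, and without its CV library the log2 fold change was 2.40 (limma adjusted p = 0.0213). That library also had the high goblet cell markers, whose part in the Lgr5 value was not tested. The call did not hold without the CV library of pair B, C or D (adjusted p = 0.127, 0.115 and 0.119) or the GF library of pair A or D (0.0878 and 0.0947), nor with library size only (0.0766) or weights per library (log2 fold change 1.39, adjusted p = 0.0672).

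Lgr4 (ENSMUSG00000050199.13, chromosome 2, 109917647 to 110014257), the broadly expressed R-spondin receptor of the same family, was more even between animals. It was at 92.4, 107, 61.0 and 76.0 CPM in CV libraries of pairs A to D and at 31.0, 50.1, 28.8 and 42.3 CPM in GF libraries. The groups did not overlap. Lgr4 rose 2.20-fold (log2 fold change 1.14, SE 0.29, limma adjusted p = 0.037), and it was higher in the CV animal of all 4 pairs, by log2 differences of 0.84 to 1.56. Its highest value was 1.75 times its lowest among CV libraries and 1.74 times among GF libraries, whereas for Lgr5 these ratios were 4.91 and 4.29. The Lgr4 call did not hold without the CV library of pair A, B or D (limma adjusted p = 0.105, 0.129 and 0.0876) or the GF library of pair A or D (0.112 and 0.0595). It was also lost with library size only (0.0673), with no filter on low values (0.126) and with a minimum of 1 CPM (0.0507).

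The balance between these receptors differed between animals. Per exon length, Lgr5 was at 0.543, 2.30, 2.50 and 2.04 times the level of Lgr4 in CV libraries of pairs A to D, and at 1.31, 1.32, 0.535 and 0.755 times in GF libraries. In 3 CV libraries Lgr5 exceeded Lgr4 by more than in any GF library, and in that of pair A Lgr4 was the higher gene, as it was in the GF libraries of pairs C and D. The TMM factors cancel in this ratio. Most deposited values of genes with several transcripts, unlike those of genes with 1, were not whole steps of a library. A further factor per gene and library may therefore remain in this ratio and in the other ratios between genes. It may likewise remain in the CPM values, fold changes and calls of every gene of the set except Fzd7, which has 1 annotated transcript. Its part was not tested.

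Rnf43 and Znrf3 encode transmembrane ubiquitin ligases that limit the number of Frizzled receptors. Rnf43 (ENSMUSG00000034177.15, chromosome 11, 87662722 to 87735539) was at 116, 226, 129 and 234 CPM in CV libraries of pairs A to D and at 71.2, 87.4, 62.4 and 189.6 CPM in GF libraries. The GF animal of pair D had a level within the CV range, and the other 3 GF animals lay below it. The log2 fold change was 0.85 (SE 0.38, limma adjusted p = 0.17, 0.0553 with the littermate block), with a 95% interval of 0.03 to 1.68. With weights per library the adjusted p was 0.0207 and the log2 fold change 1.04. All 4 pairs had the higher value in the CV animal, with log2 differences of 0.70, 1.37, 1.04 and 0.30.

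Znrf3 (ENSMUSG00000041961.14, chromosome 11, 5276324 to 5444847) was far less abundant, at 16.0, 23.6, 21.2 and 29.4 CPM in CV libraries of pairs A to D and at 13.6, 20.0, 5.84 and 14.7 CPM in GF libraries. The groups overlapped, and the log2 fold change was 0.80 (SE 0.38, limma adjusted p = 0.181), with a 95% interval of -0.01 to 1.61, and it was 0.44 when the GF library of pair C was left out. Its lowest library rested on about 51 reads, an approximate figure because the gene has several annotated transcripts. Per exon length Rnf43 stood 7.29 to 11.5 times above Znrf3 in CV and 5.27 to 15.5 times in GF libraries, so the ligases kept their order in all 8 animals.

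Fzd7 and Fzd5 encode Wnt receptors of the crypt, of which Fzd7 is known for its part in intestinal stem cells. Fzd7 (ENSMUSG00000041075.8, chromosome 1, 59482424 to 59486955) was at 25.4, 43.8, 24.9 and 39.4 CPM in CV libraries of pairs A to D and at 12.5, 16.9, 11.8 and 16.0 CPM in GF libraries. The groups did not overlap, and 9.03% of all tested genes were likewise higher in CV animals with no overlap. Fzd7 rose 2.24-fold (log2 fold change 1.16, SE 0.30, limma adjusted p = 0.0397), with log2 differences of 0.99, 1.35, 1.04 and 1.27 in the 4 pairs. It has 1 annotated transcript, so its values are whole steps of each library and correspond to 98 to 589 reads. The call did not hold when any single CV library was left out (limma adjusted p = 0.0627, 0.14, 0.0589 and 0.139 for pairs A to D) or the GF library of pair A or D (0.111 and 0.0537). Nor did it hold without both libraries of pair C (0.0633). It was also lost with library size only (0.0952), with no filter on low values (0.151) and with a minimum of 1 CPM (0.0564).

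Fzd5 (ENSMUSG00000045005.9, chromosome 1, 64730558 to 64737751) did not pass the test. Its CPM was 32.3, 16.3, 15.0 and 37.7 in CV and 13.1, 16.0, 4.72 and 25.9 in GF libraries of pairs A to D. Pairs A and C showed large differences (1.27 and 1.57 on the log2 scale), pair D a smaller one (0.53) and pair B almost none (0.03). The log2 fold change of 0.85 (SE 0.47, limma adjusted p = 0.238) had a 95% interval of -0.17 to 1.87. It was 0.38 without the GF library of pair C, and 0.25 without that and the CV library of pair A. Fzd5 shares 1233 bases of exon with Gm38058 on the opposite strand, whose reads cannot be told apart from its own where strand was not used. That transcript reached at most 0.819 CPM in CV and 0.712 CPM in GF libraries.

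**Figure D2:**
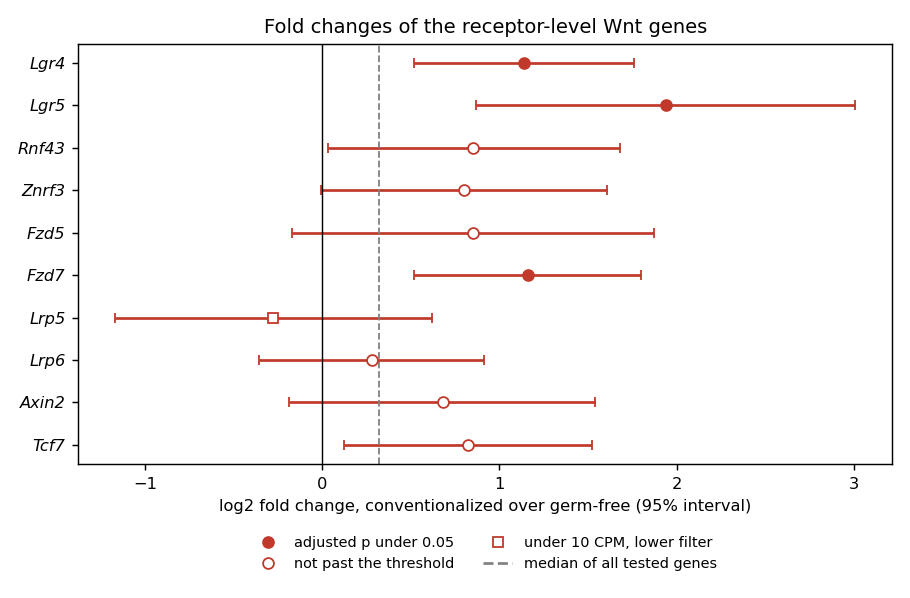
Log2 fold change of each gene, CV over GF, with 95% intervals from limma, filled symbols for adjusted p under 0.05 and a dashed line at the median of all tested genes (0.32). The intervals of Lgr4, Lgr5 and Fzd7 lie to the right of the dashed line, and those of Znrf3, Fzd5, Lrp5, Lrp6 and Axin2 span 0.

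The LRP co-receptors, which carry the Wnt signal to the cytoplasm once a ligand bridges them to Frizzled, had the smallest fold changes of the 10 genes. Lrp6 (ENSMUSG00000030201.15, chromosome 6, 134446476 to 134566965) was at 31.8, 39.6, 23.4 and 19.2 CPM in CV libraries of pairs A to D and at 21.7, 27.0, 22.0 and 20.2 CPM in GF libraries. Those groups overlapped, and the log2 fold change of 0.28 (SE 0.29, limma adjusted p = 0.534) had a 95% interval of -0.36 to 0.91. It was 0.10 when the CV library of pair B was left out, 0.44 without the CV library of pair D and 0.05 with library size only. The GF values were close together, with the highest 1.33 times the lowest.

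Lrp5 (ENSMUSG00000024913.16, chromosome 19, 3584828 to 3686564) was at 6.88, 9.31, 6.65 and 9.50 CPM in CV libraries and at 5.29, 6.96, 13.0 and 18.8 CPM in GF libraries of pairs A to D. Pairs A and B had slightly more in the CV animal (0.35 and 0.40 on the log2 scale), and pairs C and D had less (-0.91 and -0.94). With a minimum of 1 CPM in 4 libraries its log2 fold change was -0.28 (SE 0.42, limma adjusted p = 0.696, 95% interval -1.17 to 0.62), and this was 0.02 without the GF library of pair D. Per exon length, Lrp6 was at 3.29, 3.03, 2.51 and 1.44 times the level of Lrp5 in CV libraries and at 2.92, 2.76, 1.21 and 0.768 times in GF libraries. The ratio was higher in the CV animal of all 4 pairs, and the GF animal of pair D was the only library with more Lrp5 than Lrp6.

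**Figure D3:**
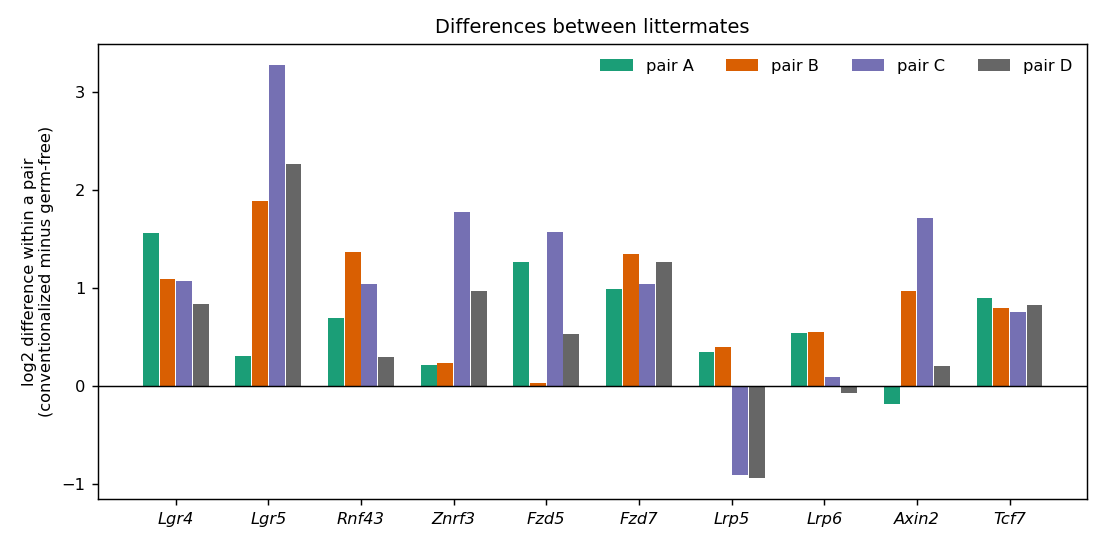
Log2 difference between littermates, CV minus GF, for each gene and pair; bars above 0 are higher in the CV animal. Tcf7 and Fzd7 have bars of similar height in all 4 pairs, Lgr5 ranges from 0.31 to 3.28, and Lrp5 has 2 bars on each side of 0.

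Axin2 and Tcf7 read out the pathway inside the cell. Axin2 (ENSMUSG00000000142.15, chromosome 11, 108920349 to 108950783) encodes a scaffold of the β-catenin destruction complex and is a standard indicator of Wnt activity. It was at 14.0, 43.1, 30.8 and 31.2 CPM in CV and at 16.0, 21.7, 9.02 and 27.0 CPM in GF libraries of pairs A to D. Pair A was lower in the CV animal (-0.18 on the log2 scale), and the other 3 pairs were higher by 0.97, 1.72 and 0.21. The log2 fold change was 0.68 (SE 0.40, limma adjusted p = 0.263, 95% interval -0.19 to 1.54), and was 0.36 when the GF library of pair C was left out and 1.0 when the CV library of pair A was. Axin2 shares 209 bases of exon with the antisense transcript Gm11670, which reached at most 0.185 CPM in CV and 0.538 CPM in GF libraries.

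Tcf7 (ENSMUSG00000000782.15, chromosome 11, 52252371 to 52283014) encodes a T cell factor that binds DNA with β-catenin. Its CPM was 25.3, 32.3, 17.9 and 36.2 in CV and 13.3, 18.3, 10.4 and 20.1 in GF libraries of pairs A to D. Although the groups overlapped, the difference within each pair was nearly constant, at 0.90, 0.80, 0.76 and 0.83 on the log2 scale. The log2 fold change of 0.82 (SE 0.32) did not pass limma (adjusted p = 0.139, and 0.0668 with the littermate block), and passed with weights per library (adjusted p = 0.0349).

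The direction was shared by most pairs. Of the 9 tested genes, 7 were higher in the CV animal in all 4 pairs (Lgr4, Lgr5, Rnf43, Znrf3, Fzd5, Fzd7 and Tcf7), against 28.4% of all tested genes, and 0 were lower in all 4, against 9.89%. The groups did not overlap for 2 of the 9 tested genes, both higher in CV animals, against 9.03% of all tested genes higher and 5.88% lower in this way. A single library stood low for most of the genes at once. The GF library of pair C held the lowest of the 8 values for 8 of the 10 genes, all but Lrp5 and Lrp6, and for 49.4% of all tested genes. When values were scaled by library size only it held the lowest value for 3 of the 10, Lgr5, Znrf3 and Fzd5, and for 32.8% of all tested genes. Under that scaling the GF library of pair A was lowest for 5 of the 10, Lgr4, Rnf43, Fzd7, Lrp5 and Tcf7, and for 12.7% of all tested genes, so the ordering depends on the scaling. Without the GF library of pair C the log2 fold changes of Lgr5, Lgr4 and Fzd7 were 1.54, 1.0 and 1.06 (limma adjusted p = 0.0433, 0.0289 and 0.039). In that fit limma pooled the spread strongly over genes, with a median of 123 degrees of freedom against 14 in the reported fit. Its p-values rest on this pooling. Without the GF library of pair C and the CV library of pair A the 3 log2 fold changes were 2.02, 0.96 and 1.19. In that 6-library fit the spread was shared by nearly all genes, and without limma's trend and robust settings the adjusted p was 0.000361 for Lgr5, 0.104 for Lgr4 and 0.0298 for Fzd7.

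Levels were compared between genes per kilobase of merged exons. In CV animals Rnf43 was highest, at 26.9 ± 9.50 CPM per kb, followed by Lgr5 (25.7 ± 13.6), Lgr4 (14.3 ± 3.38), Tcf7 (10.6 ± 3.08), Fzd7 (7.36 ± 2.13), Axin2 (5.41 ± 2.17), Fzd5 (3.66 ± 1.65), Znrf3 (2.86 ± 0.707), Lrp6 (2.09 ± 0.664) and Lrp5 (0.831 ± 0.157; SD, n = 4). Only the last step, from Lrp6 to Lrp5, separated neighbours whose ranges did not overlap. In GF animals the order was the same except that Axin2 (3.35 ± 1.40 CPM per kb) came before Fzd7 (3.16 ± 0.559), and the ranges of all neighbours overlapped. Rnf43 led there at 15.7 ± 8.98 CPM per kb and was the highest of the 10 genes in each of the 4 GF libraries. It led in 2 of the 4 CV libraries, and Lgr5 led in those of pairs B and C.

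**Figure D4:**
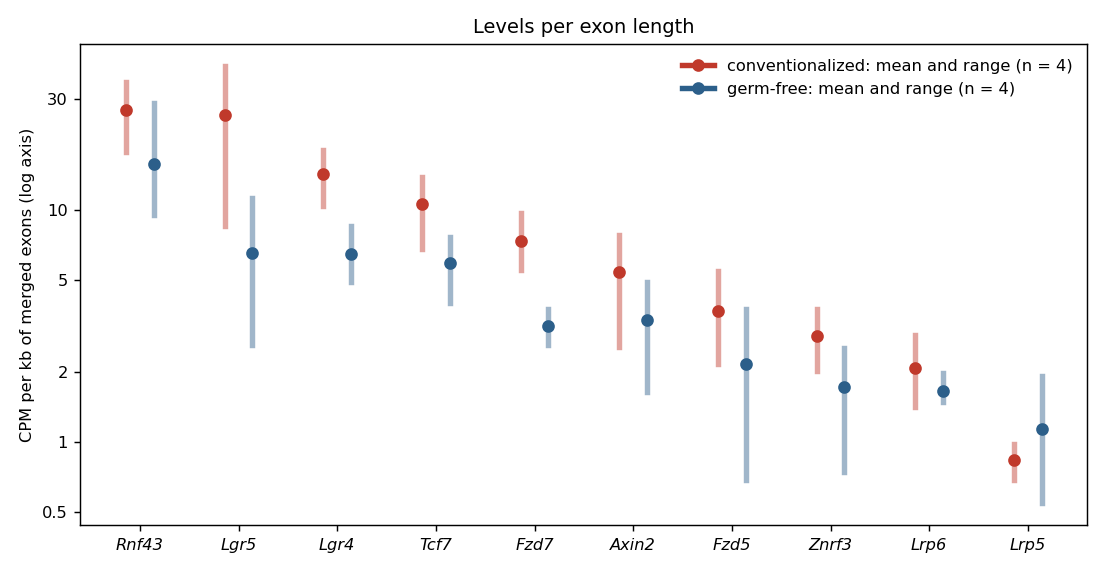
Level of each gene in CPM per kilobase of merged exons on a log axis, as the mean (dot) and range (bar) of 4 CV (left of each pair) and 4 GF libraries. Means run from 26.9 for Rnf43 to 0.831 for Lrp5 in CV animals and from 15.7 to 1.13 for the same genes in GF animals.

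Likeness between genes was measured as the root mean square difference of their centred log2 profiles over the 8 libraries. Lgr4 and Fzd7 were each other's nearest gene of the set, at 0.24, and the nearest of the set to Tcf7 was Fzd7 (0.25). Tcf7 was in turn the nearest of the set to Rnf43 (0.32), Znrf3 (0.35) and Fzd5 (0.50), and Znrf3 was nearest to Axin2 (0.35). Lrp6 lay nearest to Lgr4 (0.50), with 3669 other tested genes nearer to Lrp6. For Lgr5 the nearest of the set was Fzd7 at 0.74, the largest of these distances, with 185 other tested genes nearer. That count was higher for Tcf7 (217), Znrf3 (713) and Fzd5 (1683). It was lower for Fzd7 (15), Lgr4 (32), Axin2 (32) and Rnf43 (52). The 5 tested genes nearest to Lgr5 were Gm830 (0.25), Car12 (0.48), Rassf5 (0.48), Gemin4 (0.51) and Ndc80 (0.51). They were picked for likeness to Lgr5 over these same libraries, so their values are given as a description, with no test. Gm830, a transcript on chromosome 4, was at 28.9, 121, 71.4 and 87.0 CPM in CV libraries and at 31.7, 46.1, 10.8 and 18.5 CPM in GF libraries of pairs A to D. Its CV library of pair A fell inside the GF range, and the other 3 lay above it. Car12, a carbonic anhydrase gene, had a log2 fold change of 1.41 and the kinetochore gene Ndc80 of 2.06.

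Elsewhere in the pathway, 98 further genes were listed by role, of which 46 were abundant enough to be tested. Among these 0 rose and 3 fell, against 1.16% and 3.76% of all tested genes, and Prox1, 1 of the 3, passed the 10 CPM minimum through its GF libraries alone. The median log2 fold change of the 46 was 0.32, equal to that of all tested genes. With the littermate block 3 rose and 4 fell, against 8.08% and 5.02% of all tested genes. The list was drawn up with earlier results of these data known.

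The largest difference of the list was in a gene acting outside the cell. Wif1, which encodes a secreted protein that binds Wnt ligands, fell to 8.64 ± 4.35 CPM in CV animals, against 59.5 ± 21.7 CPM in GF animals (log2 fold change -2.83, SE 0.42, limma adjusted p = 0.00548). It was lower in all 4 pairs and was called in all 8 fits without 1 library. Wnt3, the ligand made by Paneth cells, was at 19.3, 10.3, 21.3 and 28.4 CPM in CV libraries of pairs A to D and at 65.1, 46.1, 66.3 and 22.9 CPM in GF libraries. It was lower in the CV animal of pairs A to C and not of pair D, and its fold change passed with the littermate block (adjusted p = 0.0448) and not without it (log2 fold change -1.29, SE 0.39, limma adjusted p = 0.076). The ligand-export protein gene Wls (log2 fold change 0.48, adjusted p = 0.234), the antagonist gene Sfrp5 (0.34, adjusted p = 0.568) and the receptor gene Ryk (0.51, adjusted p = 0.236), each the most abundant of its list, did not pass limma.

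Inside the cell, 20 genes of cytoplasmic signalling were tested and 0 were called with or without the littermate block. β-catenin itself, Ctnnb1, was at 597 ± 133 CPM in CV and 414 ± 66.8 CPM in GF animals (log2 fold change 0.51, SE 0.33, limma adjusted p = 0.305). Of 8 nuclear factors, Tle2, a co-repressor of the Groucho family, fell (13.5 ± 5.21 CPM in CV and 48.0 ± 20.5 CPM in GF animals, log2 fold change -1.77, SE 0.38, limma adjusted p = 0.0181). It was lower in all 4 pairs and was called in 5 of 8 fits without 1 library. Tcf7l2, the main T cell factor gene of the intestinal epithelium, was at 36.4, 40.5, 28.0 and 35.3 CPM in CV libraries of pairs A to D and at 24.4, 17.9, 12.9 and 14.7 CPM in GF libraries. Those groups did not overlap, and 9.03% of all tested genes were likewise higher in CV animals with no overlap. Tcf7l2 passed with the littermate block (adjusted p = 0.0374) and not without it (log2 fold change 1.01, SE 0.29, limma adjusted p = 0.0608). Tle1, the most abundant gene of that list, had a log2 fold change of -0.23 (adjusted p = 0.584).

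Of 10 target genes tested, 0 rose and 1 fell. Their median log2 fold change was 0.96, against 0.32 over all tested genes, and 9 of the 10 had a positive value, against 70.2% of all tested genes. Sp5 (49.3 ± 29.0 CPM in CV and 15.0 ± 7.12 CPM in GF animals, log2 fold change 1.65, limma adjusted p = 0.0534) and the cyclin gene Ccnd1 (57.3 ± 25.3 CPM in CV and 22.7 ± 11.8 CPM in GF animals, log2 fold change 1.38, limma adjusted p = 0.0841) passed with the littermate block (adjusted p = 0.0297 and 0.0161) and not without it. Myc, the most abundant of the list, had a log2 fold change of 1.24 (SE 0.54, limma adjusted p = 0.163). Prox1, a homeobox gene also known from enteroendocrine cells, was the gene of this list that fell, at 6.42 ± 0.753 CPM in CV and 18.1 ± 1.96 CPM in GF animals (log2 fold change -1.42, SE 0.32, limma adjusted p = 0.023). It reached the 10 CPM minimum only in the GF libraries, so a call could only have been towards lower values, and when single libraries were left out it met that minimum in 4 of 8 fits and was called in 1.

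**Figure D5:**
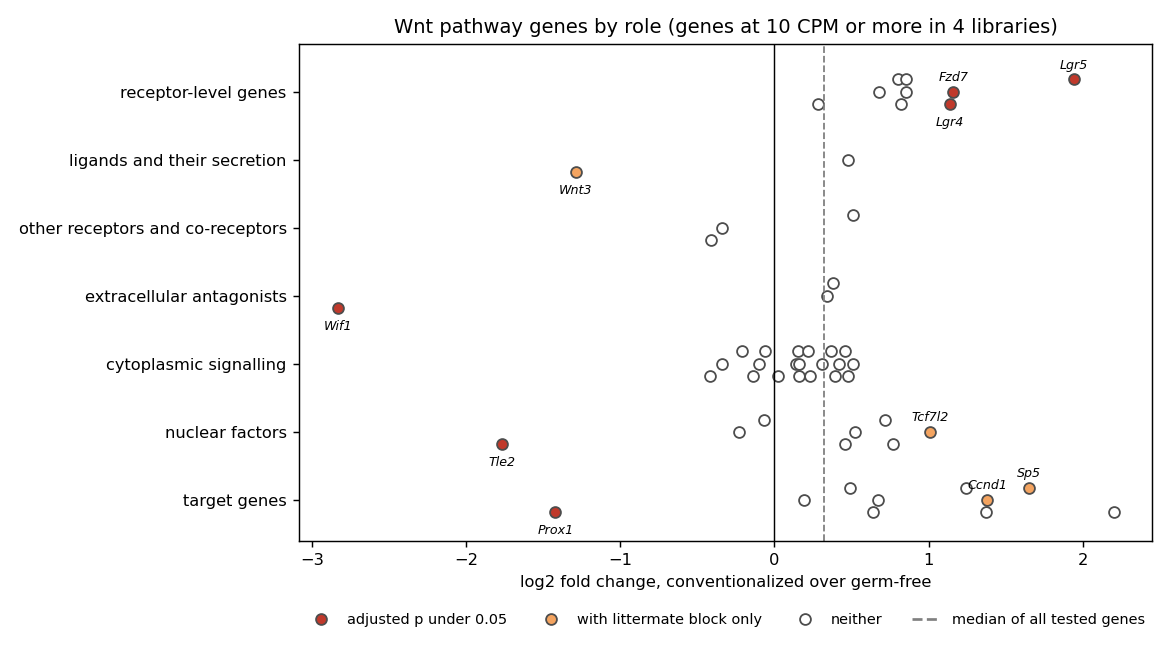
Log2 fold change, CV over GF, of the tested receptor-level genes (top row) and of other tested Wnt pathway genes by role; each dot is a gene, red where the adjusted p was under 0.05, orange where it was so with the littermate block only. Cytoplasmic genes lie between -0.42 and 0.51, while Wif1 (-2.83) lies below all other dots.

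Summed markers of enteroendocrine cells, of mitosis and of endothelium did not overlap between the groups, and those of the other lists did. The summed level of 12 enteroendocrine markers was 8988 to 23057 CPM in CV and 37397 to 88854 CPM in GF libraries, with 7 of 12 called lower. The summed level of 12 mitosis markers was 1540.3 to 1986 CPM in CV and 190.3 to 962 CPM in GF libraries, with 8 of 12 called higher. Among all tested genes, 1.16% were called higher and 3.76% lower. The 10 stem cell markers summed to 6129 to 11583 CPM in CV and 985 to 6228 CPM in GF libraries, with 0 of 10 called. Their median log2 fold change was 1.36, and that of the mitosis markers 1.73. Both exceeded the 0.85 of the 9 tested genes of the set and the 0.32 of all tested genes. Medians were below 0 for enteroendocrine (-1.88), tuft cell (-0.92) and endothelial markers (-1.56). Enterocyte markers (3 of 9 called lower) summed to 980.2 to 3871 CPM in CV and 2124 to 5370.1 CPM in GF libraries, Paneth cell markers (1 of 7 called higher) to 6338 to 9505 CPM in CV and 2608 to 16007 CPM in GF libraries, tuft cell markers (0 of 4 tested called) to 63.2 to 549 CPM in CV and 266 to 550.0 CPM in GF libraries, and goblet cell markers (0 of 7 called) to the ranges above. Summed leukocyte markers stayed at 9.64 to 36.6 CPM in CV and 26.0 to 37.1 CPM in GF libraries, and those of stroma and muscle at 2.02 to 17.0 CPM in CV and 13.4 to 27.8 CPM in GF libraries. Endothelial markers (1 of 2 tested called lower) summed to 6.16 to 32.8 CPM in CV and 33.2 to 50.1 CPM in GF libraries. Pecam1, the gene for CD31, averaged 5.0 CPM in CV and 19.9 CPM in GF libraries, and Ptprc, the gene for CD45, 9.62 CPM in CV and 11.1 CPM in GF libraries. No marker of any list was at 0 in all 8 libraries. The part of these cell types in the differences of Lgr5, Lgr4, Fzd7, Wif1, Tle2 and Prox1 was not tested.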

How the data were processed

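RNA of 8 sorted jejunal samples was sequenced. Per the labels' protocols, libraries were made from 10 ng of RNA with SMARTer Ultra Low Input and Nextera XT kits and read as 100 bp single ends, 4 to a lane. The authors deposited normalized signal per gene, not read counts. Per the submitters' processing notes, the tools included DESeq2 1.12.4 under R 3.3.1, STAR 2.4.2a and Trimmomatic 0.36, with build mm10. Of the deposited signal values above 0, 99.8% were whole multiples of 1 step per library (tolerance 0.02 of a step) for 27909 genes with 1 annotated transcript, and 22.9% for 20149 genes with several. The step gave approximate read totals, but gene counts could not be recovered for all genes. So no count test was run.

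Values were divided by the library total and by TMM factors (trims of 30% and 5%) to CPM. Tests used limma 3.58.1 in R 4.3.3 with trend and robust settings on log2(CPM + 0.5), condition as the only term, and the genes that reached 10 CPM in 4 or more libraries. P-values are 2-sided and adjusted by the Benjamini-Hochberg method over all tested genes, with a threshold of 0.05. Fold changes are on the log2(CPM + 0.5) scale, which understates those of low genes. Lrp5 was fitted with a minimum of 1 CPM. Gene positions are from GENCODE M21 (GRCm38), which matched 48058 of 48440 genes, and 10128 genes were at 0 in all libraries. No pair of libraries correlated above 0.971.

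Each animal's pair is in the labels, which pairs the libraries by design; the deviations of littermates from their group means correlated at 0.14, -0.16, 0.31 and -0.01 in pairs A to D. On simulated data (5 runs, 200 changed genes, 9940 genes tested), 10.3% of log2 changes of 1 and 69.5% of changes of 2 were recovered, with 5.4 false calls per run. The simulated noise was independent between genes and between libraries, and no simulated library stood apart. These rates may therefore not hold for the data. PCR reads are not independent molecules, so depth speaks of counting error only. Named genes are the 10 genes, pathway genes called with or without the littermate block, the most abundant gene of each pathway list, and the nearest genes to Lgr5 and within the set. These genes, the lists and the tests were chosen with earlier results of these data known.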

Additional observations from a re-analysis of the deposited data

How the results depend on the processing

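All 9 tested genes of the set kept a positive log2 fold change under every alternative. Of the calls for Lgr4, Lgr5 and Fzd7, 3 held with a replicate block for littermate pairs. With library size only 0 held, and with no filter on low values 0 held. Lgr5 alone held with a minimum of 1 CPM, and Lgr4 alone without pair C. The cause was not tested. Over the fits without 1 library, 0 to 3 of these genes were called higher and 0 to 0 lower, 12 to 410 of all genes higher and 129 to 372 lower, and 0 to 3 of the pathway list higher and 1 to 3 lower. Genes called higher over the whole table, 117 in the reported fit, were 263 with upper-quartile factors, 45 with no filter, 765 with array weights per library, 812 with the replicate block, 235 without the libraries CV A and GF C, and 54 without pair C. Genes called lower, 378 in the reported fit, were 608 with array weights and 160 without pair C. Pathway genes called higher, 0 in the reported fit, were 2 with upper-quartile factors, 1 with a pseudocount of 2, 3 with array weights, 3 with the replicate block, 3 without CV A and GF C, and 2 when that fit had no trend or robust setting. Besides Wnt3, Tcf7l2, Sp5, Ccnd1 and the counts above, the block changed no call among the 10 genes or the named pathway genes. Lrp5 turned to 0.19 with array weights and to 0.02 when the GF library of pair D was left out. A minimum of 1 CPM for Lrp5, that minimum with the block, and the fit without CV A, GF C and the trend and robust settings were chosen after seeing the data. Low depth limits Lrp5 and Fzd5, each at about 41 reads in its lowest library. That figure is approximate, because both genes have several annotated transcripts.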

Other observations

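Among Wnt pathway genes under the 10 CPM minimum, the following were picked after their values were seen. With a minimum of 1 CPM in 4 libraries, Frzb, which encodes a secreted Frizzled-related protein, was at 2.76, 0.648, 4.05 and 2.21 CPM in CV libraries of pairs A to D and at 12.5, 9.90, 12.4 and 6.04 CPM in GF libraries. The groups did not overlap, and Frzb fell (log2 fold change -1.99, SE 0.50, limma adjusted p = 0.0422). It was called lower beside Wif1, Tle2 and Prox1, while 2.34% of the 18340 genes tested at that minimum were called lower. The Frizzled receptor gene Fzd2 was at 7.04, 6.44, 8.23 and 12.7 CPM in CV libraries and at 2.68, 4.01, 1.61 and 2.96 CPM in GF libraries. Its groups did not overlap, as for Fzd7, but it did not pass (log2 fold change 1.46, SE 0.44, limma adjusted p = 0.0853). Of genes tested at 10 CPM, 9.03% were higher and 5.88% lower in CV animals with no overlap. That share was not counted at the 1 CPM minimum. Lgr6, the R-spondin receptor gene related to Lgr4 and Lgr5, averaged 2.50 ± 1.53 CPM in CV and 3.38 ± 2.91 CPM in GF animals (log2 fold change -0.25, limma adjusted p = 0.809).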
